A study of Ovis aries with 44 samples.

Results

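Homozygous callipyge (C/C) lambs carry the callipyge allele on both chromosomes and do not develop the muscle hypertrophy of lambs that inherit it from the sire alone. Gene expression in their semimembranosus, a large muscle of the hind limb, was compared with that of normal (+/+) lambs at 30 days of age. The comparison used 5 of the 22 lambs of the series, 3 C/C lambs and 2 +/+ lambs, chosen by the genotype and age in their titles. The question was which transcripts differ between genotypes that both lack hypertrophy and differ at both parental alleles. The lambs were housed indoors and nursed their dams, and the labels do not give their sex. Each lamb's total RNA was hybridised to its own bovine Affymetrix array, and the probes of this array were designed for cattle, not sheep. Lambs of 2 other genotypes were used for the estimate of spread and for values side by side: 2 callipyge lambs with a paternal allele (+/Cpat) and 3 lambs with a maternal allele (Cmat/+), all 30 days old.

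The callipyge mutation lies between DLK1 and MEG3 in the DLK1-DIO3 imprinted domain. Genes for proteins in this domain, such as DLK1, RTL1 and DIO3, are read from the paternal chromosome, and long noncoding RNAs that host small nucleolar RNAs and microRNAs, such as MEG3 and MEG8, from the maternal chromosome. The mutation raises transcripts in cis of whichever parental chromosome carries it, and only paternal inheritance alone gives heavy muscling, an inheritance known as polar overdominance.

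Across the 10 arrays at 30 days the lowest correlation between lambs of one genotype was 0.985. The highest between lambs of different genotypes was 0.993, so the correlations did not separate the genotypes. Every array had a mean RMA value of 5.67 or 5.68. RMA values are background-corrected, quantile-normalized probe summaries on the log2 scale, in which 1 unit is a 2-fold difference. The 24 poly-A control probe sets read bacterial RNAs that can be added before cRNA synthesis, and their mean RMA values were 6.55 and 6.50 in the +/+ arrays, 6.63 and 6.65 in the +/Cpat arrays, 5.84, 5.88 and 5.95 in the C/C arrays, and 5.86, 5.71 and 5.99 in the Cmat/+ arrays. In 20 of the 24 all C/C and Cmat/+ arrays lay below all +/+ and +/Cpat arrays. Low poly-A means were not confined to these genotypes. The +/+ and +/Cpat arrays at 80 days, whose mean RMA values were lower, had poly-A means from 5.728 to 5.975. The 18 hybridization control probe sets, which read RNAs added after labelling, averaged 10.65 and 10.64 in the +/+ arrays and 10.26, 10.37 and 10.42 in the C/C arrays, and all 18 had every C/C array below both +/+ arrays (median -0.323), but none separated C/C and Cmat/+ from +/+ and +/Cpat. The hybridization controls averaged 10.39 in both +/Cpat arrays, also below +/+. The part of these shifts in the results was not tested. Per the study's methods the +/+ and +/Cpat arrays were at hand before the others were compared with them. The set of arrays therefore cannot be told apart from the difference between C/C and +/+, nor from that between C/C and +/Cpat. No fit with the set as a term can give either difference. No label or method says that the C/C and Cmat/+ arrays were run together. Between C/C and Cmat/+ the poly-A controls differed by a median of 0.013 and the hybridization controls by -0.219. The difference between C/C and Cmat/+ is given beside the probe sets that passed and the gene lists described below.

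**Figure D1:**
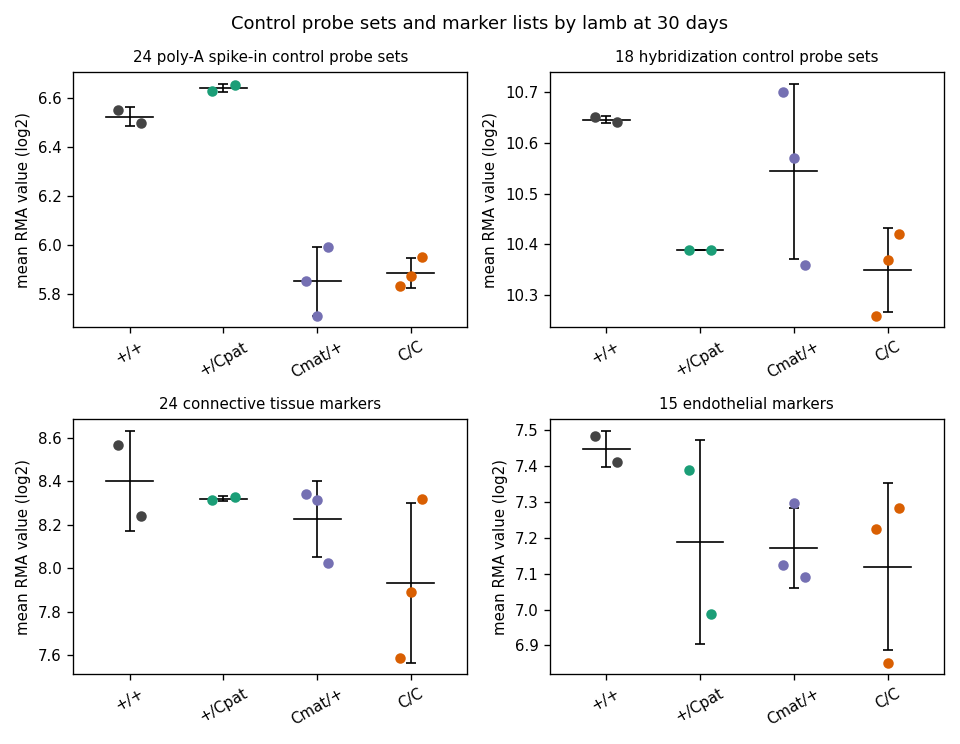
Mean RMA value (log2) of each lamb at 30 days for 24 poly-A and 18 hybridization control probe sets and for 24 connective tissue and 15 endothelial marker genes. Points are lambs, bars are genotype means and error bars are SD (n = 2 or 3). The poly-A controls lie between 5.71 and 5.99 in C/C and Cmat/+ arrays and between 6.50 and 6.65 in +/+ and +/Cpat arrays.

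The muscle markers were bright in all lambs. The 12 measured skeletal muscle markers averaged 13.56 and 13.59 in the +/+ lambs and 13.49, 13.51 and 13.54 in the C/C lambs, so the groups did not overlap. In 5 of the 12 every C/C lamb was below both +/+ lambs (41.7%, against 10.4% over all genes with 1 symbol), the median log2 difference was -0.030, and none passed the test. XIST, the noncoding RNA of the inactive X chromosome, read 5.50 and 5.37 in the +/+ lambs and 7.41, 7.99 and 5.40 in the C/C lambs. The high and low levels of XIST were thus unevenly spread over the groups, and their part in the results below was not tested.

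MEG3 accounted for 3 of the probe sets that passed, and for the highest log2 difference. Of 24016 probe sets, 6 passed an adjusted p of 0.1 (0.025%) in limma with Benjamini-Hochberg adjustment, 5 of them higher in C/C (0.0208%) and 1 lower (0.00416%). At an unadjusted p under 0.05, 686 probe sets were higher (2.86%) and 624 lower (2.6%), together 5.45% of those tested. The SD of the log2 differences over all probe sets was 0.20 and their median was -0.0031. Only 54 probe sets had a log2 difference of at least 1 in either direction. The values of C/C and +/+ lambs did not overlap in 5068 probe sets, 21.1% of those tested (10.4% with C/C higher and 10.7% lower).

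**Figure D2:**
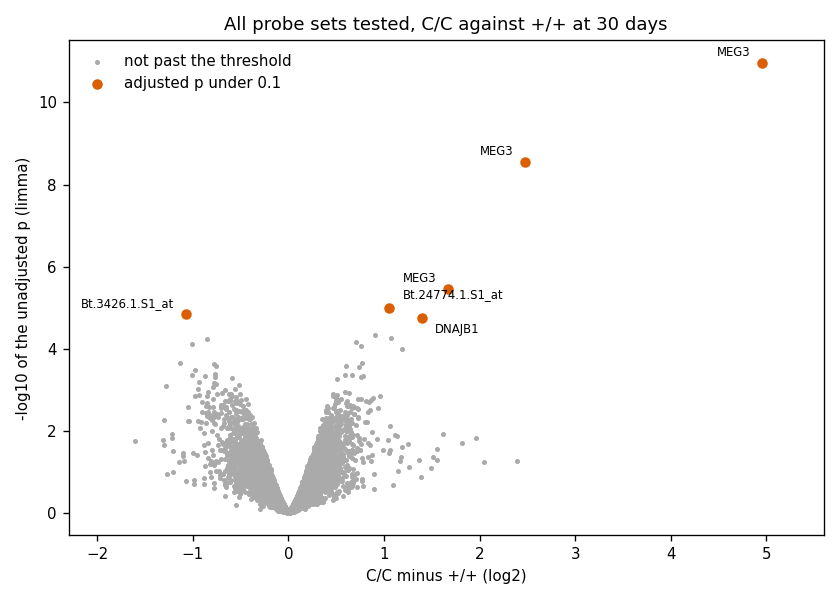
Difference between C/C and +/+ lambs (log2, horizontal) against -log10 of the unadjusted limma p (vertical) for the 24016 probe sets. Orange points passed an adjusted p of 0.1. The MEG3 probe sets that passed stand at 1.67, 2.48 and 4.96.

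MEG3 is the maternally expressed noncoding RNA beside the mutation. Its brightest probe set read 7.62 and 6.94 in the +/+ lambs and 12.14, 12.27 and 12.31 in the C/C lambs. All 3 C/C lambs lay far above both +/+ lambs, and the log2 difference was 4.96 ± 0.17 (SE, 95% interval 4.58 to 5.34), a 31.1-fold rise (limma, adjusted p = 2.58e-07). The same probe set read 12.50, 12.30 and 12.44 in the Cmat/+ lambs and 9.63 and 9.65 in the +/Cpat lambs. The C/C lambs were not separated by the test from the Cmat/+ lambs (log2 difference -0.18, adjusted p = 0.946) and were above the +/Cpat lambs (log2 difference 2.59, limma adjusted p = 0.000266).

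Another 2 MEG3 probe sets rose by less. The first of them, which the platform annotation gives as MEG3 and a supplementary table of the study as CRTC1, read 7.32 and 6.96 in the +/+ lambs and 9.46, 9.72 and 9.67 in the C/C lambs, a log2 difference of 2.48 ± 0.14 (limma, adjusted p = 3.34e-05). The other read 7.28 and 6.84 in the +/+ lambs and 8.37, 8.91 and 8.93 in the C/C lambs, a log2 difference of 1.67 ± 0.20 (limma, adjusted p = 0.0283). In both the groups did not overlap, and C/C and Cmat/+ lambs differed by -0.21 and 0.08. Without +/+ replicate 2 or C/C replicate 2 the latter did not pass (limma, lowest adjusted p = 0.144). In +/Cpat, on the same +/+ lambs, these probe sets were 0.44 and 0.18 above +/+ (adjusted p = 0.931 and 1), and the brightest was 2.36 above (limma, adjusted p = 0.00187), one of 4 probe sets that passed there (0.0167%). A further 2 probe sets annotated to MEG3 had log2 differences of 0.16 and 0.41 in C/C and did not pass.

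**Figure D3:**
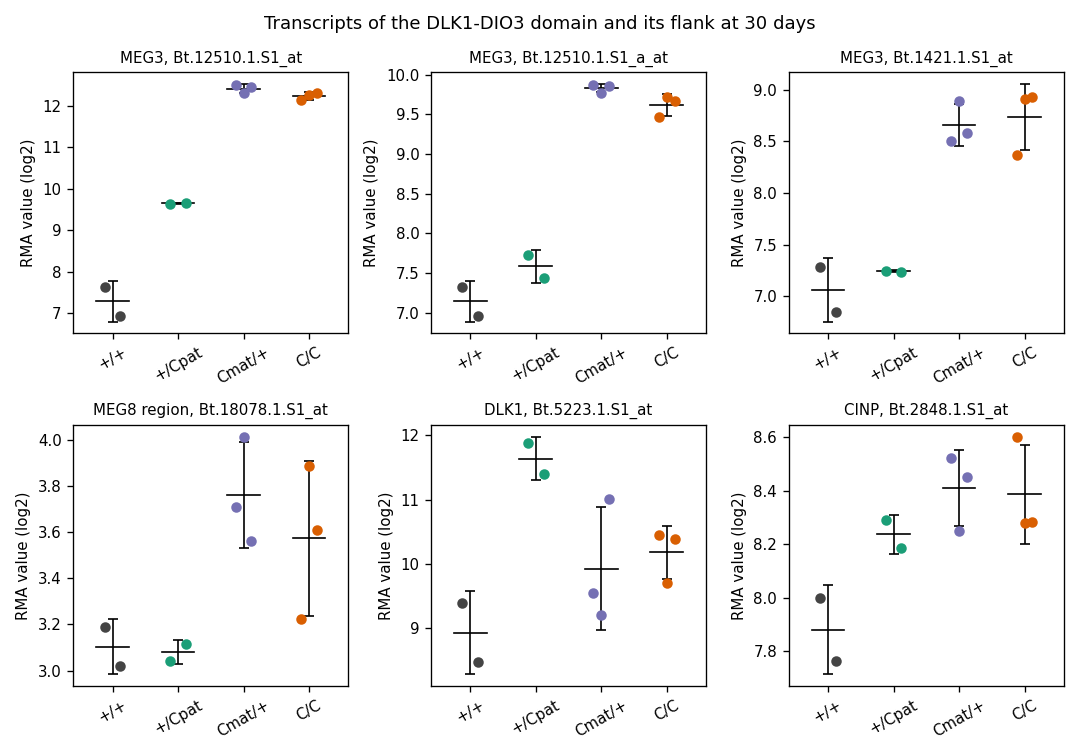
RMA values (log2) of each lamb at 30 days for 3 MEG3 probe sets, the MEG8-region probe set, DLK1 and CINP. Points are lambs, bars are genotype means and error bars are SD (n = 2 or 3). MEG3 is high in both genotypes with a maternal allele, and DLK1 is highest in +/Cpat.

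MEG8, the next maternal noncoding RNA of the domain, was dim on the array. The study's PCR table gives a probe set read from an expressed sequence tag as MEG8, the MEG8-region transcript, and its brightness lay at the 13.0th percentile of all probe sets. It read 3.19 and 3.02 in the +/+ lambs and 3.22, 3.89 and 3.61 in the C/C lambs, all above +/+, with a log2 difference of 0.47 ± 0.19 that did not pass (adjusted p = 0.866). The deposited MAS5 intensities of that probe set, a linear summary that subtracts mismatch probes, were 0.8 and 0.3 in +/+ and 14.2, 26.7 and 18.1 in C/C, and there the difference passed (limma, adjusted p = 0.0821). With the +/+ intensities near 0 its size depends on the offset added before taking log2, and no fold is given. A second probe set, annotated to MEG8, had a log2 difference of -0.033 in RMA values and a higher C/C mean in MAS5 values, and neither passed. Both probe sets were dim. By PCR the study found the MEG8-region transcript higher in C/C and Cmat/+ than in the other genotypes. For SEPHS2 it reports a PCR rise in C/C at 30 days only, with no genotype effect over all ages. The primers of the study's PCR assays for the MEG8-region transcript and for SEPHS2 are shown, 5′ to 3′, because per the methods at least 1 primer of each assay lies in the bovine region that the probe set covers:

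MEG8-region forward: cactgaaaagcacgtgccttct

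MEG8-region reverse: gatttagcatctgccatggacaa

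SEPHS2 forward: tgcacattccaaggccagaa

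SEPHS2 reverse: tcaattaatcccgtgccaagaaa

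DLK1, the paternally expressed transmembrane protein of the Notch ligand family, read 9.39 and 8.47 in the +/+ lambs and 10.44, 9.70 and 10.39 in the C/C lambs. The groups did not overlap, but the +/+ lambs themselves were far apart, and the log2 difference of 1.25 ± 0.46 did not pass (95% interval 0.23 to 2.27, adjusted p = 0.837). The +/Cpat lambs read 11.88 and 11.40, above all C/C lambs, and the Cmat/+ lambs read 9.56, 9.21 and 11.02, on both sides of C/C. A second DLK1 probe set had a log2 difference of 0.69 (adjusted p = 0.883).

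No other gene measured in the domain or its flank passed with RMA values. Of 13 measured genes of the domain and its neighbours MEG3 passed, and of the other 12, 8 had higher and 4 lower means in C/C, with a median of 0.058 against -0.0031 over all probe sets. Only DLK1 and MEG8 among these 12 belong to the domain itself, and the rest are its neighbours. MEG8 was counted there by its annotated probe set, not by the MEG8-region one. CINP, a cyclin-dependent kinase partner, read 8.60, 8.28 and 8.28 in C/C, above both +/+ lambs (log2 difference 0.51 ± 0.14, adjusted p = 0.636). PPP2R5C, a regulatory subunit of protein phosphatase 2A, had a log2 difference of 0.44 (adjusted p = 0.866). Per the study RTL1 had no probe set on this array, so it was not analysed here. Of 21 imprinted genes elsewhere in the genome 7 had higher and 14 lower means, and none passed.

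Outside the domain DNAJB1, a co-chaperone that stimulates heat shock protein 70, passed in one of its probe sets. This probe set read 6.46 and 6.57 in the +/+ lambs and 7.81, 7.71 and 8.21 in the C/C lambs, a 2.63-fold rise (log2 difference 1.39 ± 0.19, limma adjusted p = 0.0694). The groups were more than 1 unit apart. Its other probe set read 7.16 and 7.13 in +/+ and 8.03, 7.82 and 8.46 in C/C, a log2 difference of 0.96 ± 0.23 that did not pass (adjusted p = 0.602). The Cmat/+ lambs read 6.66, 7.13 and 7.23 at the first probe set, below every C/C lamb, but the log2 difference of 0.90 did not pass (limma, adjusted p = 0.946). The call of DNAJB1 was lost when any one of the 5 lambs compared was left out (limma, adjusted p from 0.111 to 0.9999).

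The other 2 probe sets past the threshold carry no gene symbol. One, of sequence cluster Bt.24774, read 6.78 and 7.13 in +/+ and 8.11, 7.95 and 7.97 in C/C, a log2 difference of 1.05 ± 0.14 (limma, adjusted p = 0.0601). The other, of cluster Bt.3426, was the one probe set that fell, from 8.76 and 8.45 in +/+ to 7.42, 7.41 and 7.76 in C/C, a log2 difference of -1.08 ± 0.15 (limma, adjusted p = 0.0685). At Bt.24774 the Cmat/+ and +/Cpat lambs lay between the groups, and at Bt.3426 the Cmat/+ lambs lay within the range of C/C. The log2 differences between C/C and Cmat/+ were 0.49 and -0.11, and neither passed. In 6 +/+ lambs of other ages, 5 of whose arrays had a lower mean RMA level, from 5.51 to 5.52, Bt.3426 ranged from 7.30 to 8.20, below both +/+ lambs at 30 days. Bt.24774 did not pass without +/+ replicate 1 or any one C/C lamb (limma, adjusted p from 0.109 to 0.9999), and Bt.3426 did not pass without either +/+ lamb or C/C replicate 1 or 2 (limma, adjusted p from 0.155 to 0.9999).

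**Figure D4:**
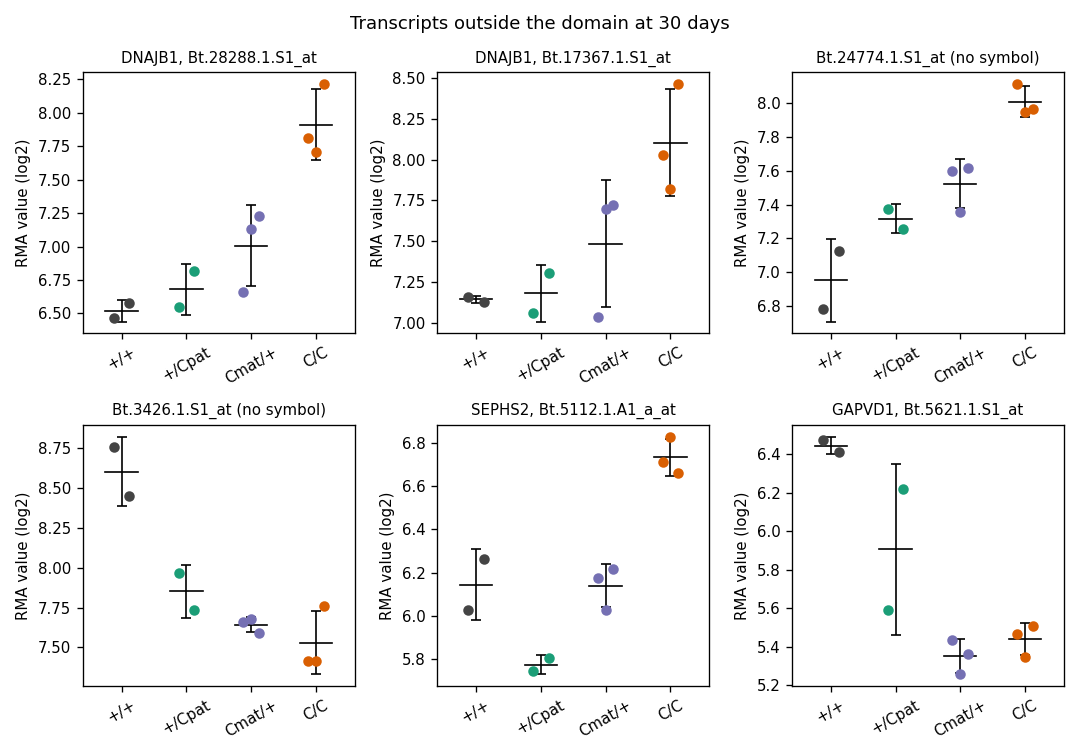
RMA values (log2) of each lamb at 30 days for both DNAJB1 probe sets, the 2 probe sets without a symbol that passed, SEPHS2 and GAPVD1. Points are lambs, bars are genotype means and error bars are SD (n = 2 or 3). In each of these the C/C lambs do not overlap the +/+ lambs.

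The named genes with the next smallest p did not pass and are given as values. SEPHS2, which makes the selenium donor for selenoproteins, read 6.03 and 6.26 in +/+, 6.71, 6.83 and 6.66 in C/C, 6.18, 6.03 and 6.21 in Cmat/+ and 5.74 and 5.80 in +/Cpat. The 3 C/C lambs were above every other lamb, with a log2 difference from +/+ of 0.59 ± 0.12 (adjusted p = 0.416) and from +/Cpat of 0.96 (limma, adjusted p = 0.0246), the latter not past the threshold without either +/Cpat lamb (limma, adjusted p = 0.15 and 0.233). HMGXB4, a high mobility group box protein, was 1.08 above +/+ (adjusted p = 0.157) and MAN2A2, a Golgi mannosidase of N-glycan processing, 1.19 (adjusted p = 0.19). METTL16, an RNA methyltransferase, and CHCHD4, an oxidoreductase of mitochondrial protein import, were 0.77 and 0.74 higher.

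Among genes with lower means, GAPVD1, a regulator of endocytosis, read 6.48 and 6.41 in +/+ and 5.47, 5.35 and 5.51 in C/C (log2 difference -1.01 ± 0.16, adjusted p = 0.163). The Cmat/+ lambs, at 5.44, 5.26 and 5.36, were beside C/C. PLS3, an actin-bundling protein, and ETS1, a transcription factor prominent in endothelial cells, differed by -0.75 and -0.77. APP, the amyloid precursor, LIMS2, a focal adhesion protein, FNBP1L, which curves membranes, and CLIC4, a chloride intracellular channel protein, differed by -0.87, -0.76, -0.59 and -0.94. MLF1 differed by -0.78 and ACADM, the medium-chain enzyme of fatty acid oxidation, by -0.75, and the adjusted p of these 9 genes ran from 0.163 to 0.535.

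Of 25 measured genes in the study's PCR table, a list chosen on lambs of this series and so no independent evidence, MEG3 passed. Of the other 24, 12 had higher and 12 lower means in C/C, with a median of -0.015 and none past the threshold. With MEG3 the median of the 25 was 0.028, and it ran from -0.088 without C/C replicate 2 to 0.20 without +/+ replicate 1. KCNN3, a calcium-activated potassium channel, read 6.63 and 6.65 in +/+ and 7.40, 7.79 and 7.51 in C/C (log2 difference 0.93 ± 0.24, adjusted p = 0.605). DNTTIP1, a partner of histone deacetylases, was 0.87 higher (adjusted p = 0.746), and LPL, which releases fatty acids from circulating lipoproteins, differed by -0.87 (adjusted p = 0.655). In +/Cpat, on the same 2 +/+ lambs, KCNN3, DNTTIP1 and LPL stood 1.27, 1.80 and -1.31 from +/+, and none passed there.

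PARK7, UCHL1 and METTL21E passed against +/Cpat and did not pass against +/+. With MAS5 values none of the 3 passed against +/Cpat (limma, adjusted p = 0.476, 0.711 and 0.466), and METTL21E also did not pass without either +/Cpat lamb or C/C replicate 2. PARK7, a redox-sensitive protein, read 11.01 and 10.78 in +/+, 10.99, 11.14 and 11.12 in C/C and 12.26 and 12.19 in +/Cpat. It was 0.19 above +/+ in C/C (95% interval -0.06 to 0.44, adjusted p = 0.995) and 1.14 below +/Cpat (log2 difference -1.14, limma adjusted p = 0.0041). UCHL1, a ubiquitin hydrolase, was 0.32 above +/+ (95% interval -0.16 to 0.79) and -2.24 from +/Cpat (limma, adjusted p = 0.00397). The study's PCR verified a +/Cpat difference from +/+ for PARK7. It did not for UCHL1, which was assayed at a single age after hypertrophy. METTL21E, a methyltransferase, read 8.78 and 7.54 in +/+ and 7.21, 7.90 and 8.41 in C/C, overlapping, with a difference of -0.32 from +/+ and -2.57 from +/Cpat (limma, adjusted p = 0.0451). The cAMP phosphodiesterases PDE4D and PDE7A were -0.15 and 0.77 from +/+, and neither passed. HIPK2, a nuclear kinase, and MAPK6, a mitogen-activated kinase, stood 0.40 and 1.04 above +/+ at the probe sets in the study's table, but -0.059 and 0.24 from +/+ at their brightest probe sets, which enter the counts above, and none of these passed.

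Across C/C and Cmat/+ no probe set passed. At an unadjusted p under 0.05, 1187 probe sets differed (4.94%), and 0 passed in limma after adjustment. Against +/Cpat 21 passed (0.0874%), 9 higher in C/C (0.0375%) and 12 lower (0.05%), and the set of arrays differs there too. The departure of C/C from the sum of both single-allele differences passed in 3 (0.0125%).

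The machinery of small RNAs was looked at because MEG8 and its neighbours are processed into them. None of 7 microRNA pathway genes passed, 5 had higher and 2 lower means, and the median was 0.22 (0.013 between C/C and Cmat/+). AGO2, the Argonaute that cuts targets, was 0.55 higher (adjusted p = 0.641), TNRC6B, its silencing partner, 0.50 (adjusted p = 0.602) and AGO3 0.33 (adjusted p = 0.9), while PRKRA, a partner of Dicer, differed by -0.30 (adjusted p = 0.908). A list of 14 genes covered small nucleolar ribonucleoproteins, of the box C/D and also the box H/ACA type, and ribosomal RNA processing. Of these 14 genes 12 had higher means and none passed. Their median was 0.15 (0.029 between C/C and Cmat/+), and UTP3 was highest at 0.53 (limma, adjusted p = 0.602).

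Connective tissue and vessel genes had lower means in C/C, without a single call. Of 24 fibroblast and connective tissue markers 20 had lower means, 6 at an unadjusted p under 0.05 (25.0%, against 2.97% lower over all 9155 genes with 1 symbol), with a median of -0.45 against 0.006 over those genes. Between C/C and Cmat/+ the median was -0.27. The mean of the list was 8.56 and 8.24 in +/+ and 7.59, 7.89 and 8.32 in C/C, so the groups overlapped and C/C replicate 1 was lowest. Without that lamb the median was -0.24, and without +/+ replicate 1 it was -0.26. POSTN, the matrix protein periostin, differed by -1.60 ± 0.58 (adjusted p = 0.837), with 3.40 in C/C replicate 1, 5.13 and 5.68 in the others and 6.66 and 6.02 in +/+. ASPN and OGN, small leucine-rich proteoglycans, and LOX, which cross-links collagen, differed by -0.91, -0.55 and -0.50 (adjusted p from 0.605 to 0.636).

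All 15 endothelial markers had lower means in C/C and 0 passed in limma, 2 at an unadjusted p under 0.05 (13.3%, against 2.97% over all genes with 1 symbol). Their median was -0.28, against -0.054 between C/C and Cmat/+ and -0.31 between Cmat/+ and +/+, and 6 of the 15 did not overlap between groups (40%, against 10.4% lower over all genes with 1 symbol). The mean of the list was 7.48 and 7.41 in +/+, 7.23, 6.85 and 7.28 in C/C, 7.13, 7.30 and 7.09 in Cmat/+ and 7.39 and 6.99 in +/Cpat. All lambs with a callipyge allele were below both +/+ lambs, which all 3 comparisons share. TEK, the angiopoietin receptor, differed by -0.79 ± 0.17 (adjusted p = 0.56), and SOX18, TIE1 and PECAM1, further endothelial genes, by -0.54, -0.55 and -0.58. In bulk muscle, fewer cells of a type and less RNA per cell cannot be told apart. The 12 smooth muscle and pericyte, 19 macrophage and leukocyte, 8 red blood cell, 10 nerve and 15 adipocyte markers had medians between -0.155 and 0.108, and between -0.221 and 0.155 when each lamb was left out, and none of these genes passed.

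**Figure D5:**
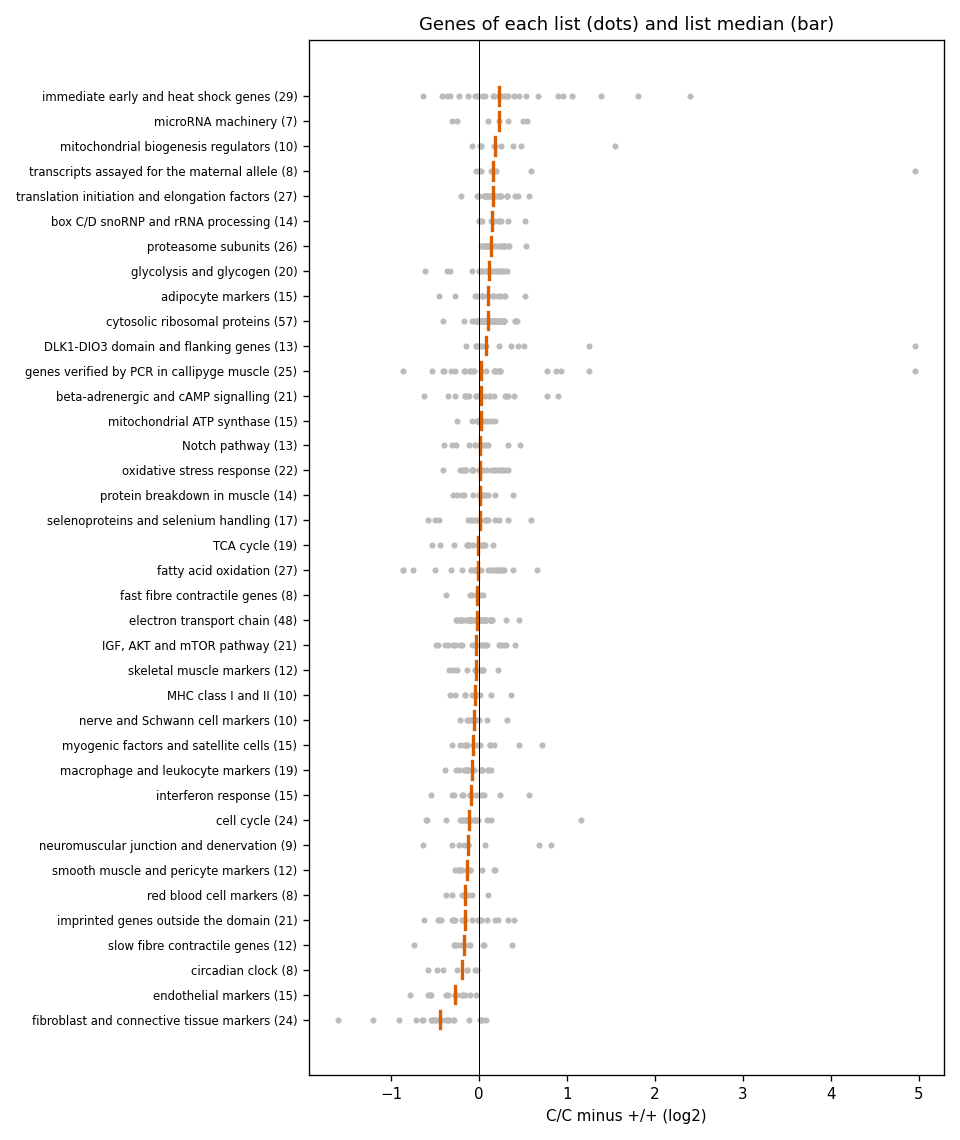
Difference between C/C and +/+ lambs (log2) for each measured gene of 38 gene lists (grey points) and the median of each list (orange bar), ordered by median, with the number of genes in brackets. The lowest median is that of connective tissue markers, -0.45, and the point at 4.96 is MEG3.

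Genes of the proteasome and of protein synthesis mostly had higher means, and none passed. All 26 measured proteasome subunits had higher means in C/C (100%, against 51.3% over all genes with 1 symbol), and none passed. Their median was 0.14 (0.16 between C/C and Cmat/+). Between +/Cpat and the same +/+ lambs it was 0.17, so the rise was not particular to C/C. The list mean was 9.80 and 9.95 in +/+ and 10.28, 10.03 and 9.83 in C/C, so the groups overlapped, and without C/C replicate 1 the count was 19 of 26 and the median 0.035, without +/+ replicate 1 the count was 18, and without +/+ replicate 2 or C/C replicate 3 the median was 0.25. PSMA7 and PSMB6, subunits of the catalytic core, were 0.54 and 0.34 higher (adjusted p = 0.646 and 0.866). Of 57 cytosolic ribosomal proteins 47 had higher means, with a median of 0.098 (-0.013 between C/C and Cmat/+), RPS3 and RPL8 at 0.44 and 0.41 and RPL39 at -0.41. Of 27 translation factors 23 had higher means, with a median of 0.16 (0.11 between C/C and Cmat/+, and 0.10 from +/+ without C/C replicate 2), EEF1B2 and EIF3I at 0.45 and 0.41. Of 14 other genes of protein breakdown in muscle 7 had higher and 7 lower means, with a median of 0.013.

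Contractile, metabolic and stress genes showed no call beyond DNAJB1. The 8 fast and 12 slow fibre genes had medians of -0.021 and -0.17. The slow fibre median ran from -0.28 without +/+ replicate 1 to 0.002 without C/C replicate 1, where 6 genes had higher and 6 lower means, and was -0.048 without +/+ replicate 2. MYL3, the slow myosin light chain, read 12.16 and 12.33 in +/+ and 10.97, 11.78 and 11.78 in C/C (log2 difference -0.74, adjusted p = 0.846). Of 27 genes of fatty acid oxidation 13 had higher means, among them UCP3, a mitochondrial carrier, at 0.65, and 14 lower, among them PDK4, which restrains pyruvate oxidation, at -0.87. Glycolysis and glycogen genes had higher means in 16 of 20 (80.0%, against 51.3% over all genes with 1 symbol). Without +/+ replicate 2 that count was 11. Electron transport genes had lower means in 32 of 48 (66.7%, against 48.7%), but in 12 without +/+ replicate 1. Of 10 regulators of mitochondrial biogenesis 9 had higher means, with a median of 0.18 (0.24 between C/C and Cmat/+, and 0.10 from +/+ without C/C replicate 3). With MAS5 values the median of these 10 from +/+ was -0.04, and 6 of them kept their direction. PPARGC1A, their coactivator, read 7.85 and 7.45 in +/+ and 7.91, 8.89 and 10.82 in C/C, a wide spread, with a log2 difference of 1.55 ± 0.61 (adjusted p = 0.865), and TFB1M, a mitochondrial methyltransferase, was 0.48 higher.

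The 29 immediate early and heat shock genes had a median of 0.23 (0.15 between C/C and Cmat/+), with EGR1 at 6.54 and 7.20 in +/+ and 9.67, 6.94 and 9.45 in C/C and JUND at -0.42. All 8 clock genes had lower means, with PER2 at -0.58 (adjusted p = 0.646), but without C/C replicate 3 only 4 of 8 did, and over the 5 lambs left out in turn the median ran from -0.42 to 0.018. Of 9 neuromuscular junction and denervation genes 3 had higher and 6 lower means, with a median of -0.13. Among subunits of the muscle acetylcholine receptor, CHRND and CHRNE stood 0.82 and 0.69 above +/+ (adjusted p = 0.646 and 0.629), and CHRNA1, CHRNB1 and CHRNG at -0.12, -0.13 and -0.23. CHRNE was 1.32 above +/Cpat (limma, adjusted p = 0.0451), and not past the threshold without +/Cpat replicate 1 or any one C/C lamb (limma, adjusted p from 0.114 to 0.337).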

How the data were processed

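RNA of each lamb was hybridised to a bovine Affymetrix array. The authors deposited 2 values per array, an RMA value on the log2 scale and a MAS5 intensity, made with RMA in R and with MAS5 in GCOS. The 22 RMA columns and 22 MAS5 columns were matched to lambs by their titles. Of 24128 probe sets, 112 Affymetrix controls were left out of the tests. The platform annotation gave 13292 of the others 1 gene symbol, 86 several and 10638 none. Genotype means of the 10 arrays at 30 days were compared with limma 3.58.1 in R 4.3.3 (lmFit, eBayes, 6 residual and 5.03 prior degrees of freedom). Benjamini-Hochberg adjustment ran over 24016 probe sets with a threshold of 0.1. MAS5 intensities were scaled to a 2% trimmed mean of 500 and taken as log2 after adding 16. The methods' own contrasts did not include C/C against +/+.

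Named were probe sets past the threshold, genes with the smallest p up to 10 in each direction, the study's domain, maternal-allele and PCR-verified genes, and up to 4 members of each gene list, a gene being taken from its brightest probe set with 1 symbol. A gene of the study's table without a symbol in the annotation was read from the probe set in that table. The members and lists were chosen with earlier results of these data known. The number of arrays limits the precision. A p-value sets a difference of genotype means against the spread of lambs within genotypes, moderated over all probe sets. For C/C against +/+ it cannot tell the genotype from the set of arrays. The fit was tested on simulated data that held no shift between sets of arrays, so that test cannot bear on this limit.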

Additional observations from a re-analysis of the deposited data

Results flagged for a closer look

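In 3 genes the effect of having both alleles departed from the sum of the single-allele effects, (C/C minus +/Cpat) minus (Cmat/+ minus +/+), tested as an interaction in limma. The log2 departure was -2.54 for MEG3 at its brightest probe set (adjusted p = 0.012), -1.37 for PARK7 (adjusted p = 0.0416) and -2.45 for UCHL1 (adjusted p = 0.0485), the 3 probe sets of 24016 that passed (0.0125%). For MEG3 the C/C lambs stood at the level of Cmat/+, and for PARK7 and UCHL1 near +/+. The high +/Cpat level of UCHL1 was not verified by the study's PCR, done at a single later age, and that of PARK7 was. The sum was taken on the log2 scale and rests on the 2 +/+ lambs, which read 7.62 and 6.94 for MEG3. In 6 +/+ lambs of other ages, most of whose arrays had a lower mean RMA level, that probe set ranged from 6.56 to 9.35. Whether the array can read a value as high as the MEG3 sum was not tested. With MAS5 values none of the 3 passed (limma, adjusted p = 0.478 for MEG3, 0.779 for PARK7 and 1 for UCHL1). PARK7 and UCHL1 also lost the call without any one of several lambs, among them either +/+ lamb. Groups of 2 and 3 lambs were too small for a test of single outlying lambs.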

How the results depend on the processing

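The brightest MEG3 probe set passed under every alternative run for it, with log2 differences from 4.62 to 5.30. The next MEG3 probe set lost its call only with MAS5 values and an offset of 1, and the other 4 calls were each lost under several alternatives. The count for C/C against +/+ was 6. It was 2 with only the 5 arrays of both groups, 2 with the replicate block, 3 with MAS5 values, 3 with these quantile normalized, 2 with an offset of 1, 3 at a threshold of 0.05, 9 with array weights, 8 with RMA values quantile normalized again, and 2 to 9 when each lamb was left out (3 without +/+ replicate 1, 3 without C/C replicate 1 and 2 without C/C replicate 2, 9 without C/C replicate 3 or either +/Cpat lamb). The count against Cmat/+ was 0 and rose to 1 without Cmat/+ replicate 2, a range of 0 to 1. The count against +/Cpat was 21, and was 4 when no spread was shared over probe sets, 5 with the replicate block, 1 with MAS5 values and 8 to 20 when each lamb was left out. The departure from the sum of single-allele effects passed in 3 probe sets, and in 0 when no spread was shared over probe sets, 1 with the replicate block, 0 with MAS5 values and 1 to 4 when each lamb was left out. Same-numbered lambs of different genotypes had deviations that correlated from -0.259 to 0.197, so the replicate numbers were not taken to pair the lambs. The probe set annotated to MEG8 turned to 0.72 with MAS5 values, 0.74 with these quantile normalized and 1.68 with an offset of 1, and ranged from -0.16 to 0.092 when each lamb was left out. METTL21E ranged from -0.93 to 0.30 when each lamb was left out. The cause of these shifts was not tested. Alternatives that left out lambs in the gene lists were chosen after seeing the data.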
